A study of Mus musculus with 9 samples.

Results

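Transcripts of 8 genes of neutrophil granules and neutrophil alarmins were followed in the mouse main olfactory epithelium. They were S100a8, S100a9, Elane, Mpo, Ngp, Camp, Ltf and Lcn2, chosen by gene name from the 55291 genes of the count table, and all 8 were found and passed the filter on low counts. The RNA came from 9 C57BL/6 mice aged 8 to 12 weeks: 3 wild-type littermate controls, 3 Ms4a cluster knockout mice (Ms4a cluster-/-) and 3 Ms4a6c knockout mice (Ms4a6c-/-). In the first line CRISPR/Cas9 removed the whole Ms4a gene family, and in the second homologous recombination removed Ms4a6c alone; both deletions were carried in every cell of the animal. The epithelium was dissected and homogenised whole, so that each library held its blood vessels, glands and underlying tissue as well as its neurons. The question was whether these genes differed between the genotypes, and whether their levels went from mouse to mouse with transcripts of blood or marrow or with those of the epithelium and its glands.

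Neutrophils are built in the bone marrow, and their granules are filled in sequence. Myeloperoxidase and elastase, the cargo of the primary (azurophil) granules, are transcribed in promyelocytes, while the proteins of the secondary (specific) granules are transcribed later, in myelocytes and metamyelocytes. By the time a neutrophil enters the blood it has largely stopped transcribing granule genes, whereas S100a8 and S100a9 messages remain abundant in mature cells. Lactoferrin and lipocalin 2 are not confined to neutrophils: secretory glands of the airway and nose make lactoferrin, and many epithelia can make lipocalin 2. Ms4a genes encode small membrane proteins with several pass-through segments, some of which are expressed in leukocytes and some in olfactory neurons.

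On the mouse genome (build GRCm38) the 8 genes lie on 5 chromosomes. S100a8 (chr3:90668978-90670035) and S100a9 (chr3:90692632-90695721) are neighbours 22.6 kb apart, on opposite strands. Camp (chr9:109847379-109849617), Ngp (chr9:110419747-110423012) and Ltf (chr9:111019271-111042767) lie on 1 chromosome, with 570.1 kb between Camp and Ngp and 596.3 kb between Ngp and Ltf. Elane is at chr10:79886247-79888215, Mpo at chr11:87793581-87804413 and Lcn2 at chr2:32384633-32388252. All 8 are protein-coding, and by the longest transcript of each none had another gene with a transcript at least 90% identical over at least 300 bases. Shorter shared stretches were not searched, and Mpo had a fractional expected count, 90.96, in cluster knockout mouse 3. Mpo overlaps an antisense gene, Gm11505, and the libraries were directional, but the strand setting of the counting is not given in the sources used here.

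Sequence just before the annotated starts of 4 of these genes is shown because 7 of the 8 went up and down together from mouse to mouse and Ltf did not. The sequences are RefSeq promoter sequence of build GRCm38.p6, written 5′ to 3′ on the strand of the gene, and capitals mark matches to the binding motifs of 2 transcription factors of the granulocyte lineage, C/EBP (TTNNGNAA) and PU.1 (GAGGAAG), searched on both strands. S100a9 (chr3:90695722-90695971, minus strand), Ngp (chr9:110419558-110419746, plus strand) and Ltf (chr9:111019042-111019270, plus strand) each show 2 C/EBP matches here, and Elane (chr10:79886062-79886246, plus strand) shows 1 PU.1 match.
S100a9: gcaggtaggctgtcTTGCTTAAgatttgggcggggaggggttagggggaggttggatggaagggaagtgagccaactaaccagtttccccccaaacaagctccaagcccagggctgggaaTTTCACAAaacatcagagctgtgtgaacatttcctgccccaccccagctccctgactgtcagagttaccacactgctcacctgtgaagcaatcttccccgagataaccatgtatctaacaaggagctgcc
Elane: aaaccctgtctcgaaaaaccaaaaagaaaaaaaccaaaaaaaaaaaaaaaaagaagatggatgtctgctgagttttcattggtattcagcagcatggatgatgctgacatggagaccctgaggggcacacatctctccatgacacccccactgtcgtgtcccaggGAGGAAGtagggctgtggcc
Ngp: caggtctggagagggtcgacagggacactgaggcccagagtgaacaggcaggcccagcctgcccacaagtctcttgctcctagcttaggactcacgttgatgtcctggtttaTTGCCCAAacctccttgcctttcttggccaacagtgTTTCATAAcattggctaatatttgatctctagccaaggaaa
Ltf: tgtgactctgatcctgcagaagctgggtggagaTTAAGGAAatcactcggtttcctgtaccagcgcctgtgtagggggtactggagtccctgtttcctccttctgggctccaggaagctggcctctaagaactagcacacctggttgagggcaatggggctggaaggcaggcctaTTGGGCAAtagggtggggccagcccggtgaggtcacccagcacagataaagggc
In windows of equal length around the starts, C/EBP matches were present in 5 of the 8 genes (S100a8, S100a9, Ngp, Ltf and Lcn2) and in 40.7% of 32851 mouse promoters. PU.1 matches were present in 4 of the 8 (S100a8, Elane, Mpo and Lcn2) and in 13.6% of all promoters. The C/EBP letters did not separate Ltf from the genes it parted from, since Ngp and S100a9 hold them as well, and a match describes letters, not a bound site.

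The libraries held 13954591 to 21987174 expected counts, and 23225 genes with at least 10 counts over the 9 mice were tested. Levels are given as CPM, counts brought to a common library size, after scaling by the trimmed mean of M values (TMM). Ms4a6c, the targeted gene, had 54.0, 90.3 and 81.5 expected counts in the controls, 0 in all 3 Ms4a cluster knockout mice and 0, 2.35 and 2 in the Ms4a6c knockout mice. Ms4a1, a second gene of the cluster, had 10, 10 and 14 counts in the controls and 0 in the cluster knockout mice, which allows up to 3 counts per library. These counts go with the labels. Wild-type mouse 1 and Ms4a cluster knockout mouse 2 stood apart: 10 nasal gland genes held 19.3% and 19.0% of their counts, against 0.102% to 3.58% in the other 7 libraries, and their TMM factors were 0.702 and 0.704.

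Per kilobase of exon, Ltf and S100a9 were the most abundant of the 8 transcripts in wild-type mice, and Elane and Mpo the least. Ltf, which encodes the iron-binding protein lactoferrin, stood at 73.5 ± 33.4 CPM per kb (SD, n = 3 throughout) and S100a9 at 59.6 ± 8.08. S100a8 followed at 27.0 ± 3.51 CPM per kb, Ngp at 13.3 ± 4.62, Camp at 8.24 ± 1.38 and Lcn2 at 5.56 ± 0.962. The primary granule genes came last, with Elane at 1.56 ± 0.753 and Mpo at 0.964 ± 0.233 CPM per kb. The ranges over the 3 mice overlapped for the neighbours Ltf and S100a9, Ngp and Camp, and Elane and Mpo, and did not overlap for the other neighbours in this order. Lcn2 and Camp changed places when the longest transcript was used as the length instead of all exons (10.6 CPM per kb for Lcn2).

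The alarmins S100a8 and S100a9, which pair to form the calcium- and zinc-binding protein calprotectin, were high in the same 3 mice. S100a8 stood at 21.5, 17.5 and 17.2 CPM in wild-type mice 1, 2 and 3, at 41.8, 21.7 and 18.9 CPM in the Ms4a cluster knockout mice and at 18.1, 36.8 and 52.1 CPM in the Ms4a6c knockout mice. S100a9 stood at 35.9, 29.5 and 27.9 CPM in the wild-type mice, at 73.0, 36.0 and 30.9 CPM in the cluster knockout mice and at 27.6, 58.0 and 79.96 CPM in the Ms4a6c knockout mice. In both genes cluster knockout mouse 1 and Ms4a6c knockout mice 2 and 3 were the high animals, and the remaining mouse or mice of each knockout line lay among or beside the wild-type values, so the genotypes overlapped. The ratio of S100a9 to S100a8 ranged only from 1.53 to 1.75 over the 9 mice, although each gene varied about as much as 2.89-fold and 3.03-fold, respectively, between its lowest and highest mouse.

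The primary granule genes were high in the same 3 mice over a wider range, with Ms4a6c knockout mouse 2 above cluster knockout mouse 1, the reverse of their order in the alarmins. Elane, which encodes the serine protease neutrophil elastase, stood at 1.99, 1.94 and 0.683 CPM in the wild-type mice, at 3.66, 2.09 and 1.604 CPM in the cluster knockout mice and at 1.15, 3.97 and 6.69 CPM in the Ms4a6c knockout mice. These levels rest on 12 to 105 expected counts per library, the fewest of the 8 genes. Mpo, whose product myeloperoxidase makes hypochlorous acid, stood at 3.63, 3.88 and 2.39 CPM in the wild-type mice, at 7.51, 4.98 and 4.56 CPM in the cluster knockout mice and at 3.32, 12.5 and 17.1 CPM in the Ms4a6c knockout mice. Ms4a6c knockout mouse 3 was highest in both and wild-type mouse 3 lowest in both, a span of 9.80-fold for Elane and 7.17-fold for Mpo. Mpo was the only one of the 8 genes in which all cluster knockout mice lay above all wild-type mice.

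Of the 4 specific granule genes, Ngp, Camp and Lcn2 had the same high mice as the alarmins and the primary granule genes. Ngp, which encodes a cystatin-like protein of neutrophil granules, stood at 19.1, 19.9 and 9.73 CPM in the wild-type mice, at 38.6, 19.4 and 14.4 CPM in the cluster knockout mice and at 15.0, 44.6 and 66.7 CPM in the Ms4a6c knockout mice. Camp, the precursor of the antimicrobial peptide cathelicidin, stood at 6.75, 5.05 and 6.94 CPM, at 14.4, 9.07 and 4.86 CPM and at 5.78, 13.96 and 25.3 CPM in the same order of groups. Lcn2, whose product lipocalin 2 binds bacterial siderophores, stood at 14.3, 17.3 and 12.2 CPM, at 31.96, 15.3 and 15.6 CPM and at 12.8, 21.6 and 30.2 CPM. Each of these 3 genes again had cluster knockout mouse 1 and Ms4a6c knockout mice 2 and 3 as its highest animals, and Lcn2 had the narrowest span of all, 2.61-fold.

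Ltf stood apart. It was at 355, 277 and 129 CPM in the wild-type mice, at 169, 469.7 and 631 CPM in the cluster knockout mice and at 94.98, 135 and 102 CPM in the Ms4a6c knockout mice. Its highest animals were cluster knockout mice 3 and 2 and wild-type mouse 1, none of which was among the high mice of the other 7 genes. The 3 mice highest in those genes had only 102 to 169 CPM of Ltf, and the ratio of Ltf to Ngp therefore ran from 1.52 in Ms4a6c knockout mouse 3 to 43.7 in cluster knockout mouse 3, a 28.7-fold range. For comparison, the ratio of Elane to Ngp spanned 1.58-fold and that of Lcn2 to S100a9 1.57-fold.

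**Figure D1:**
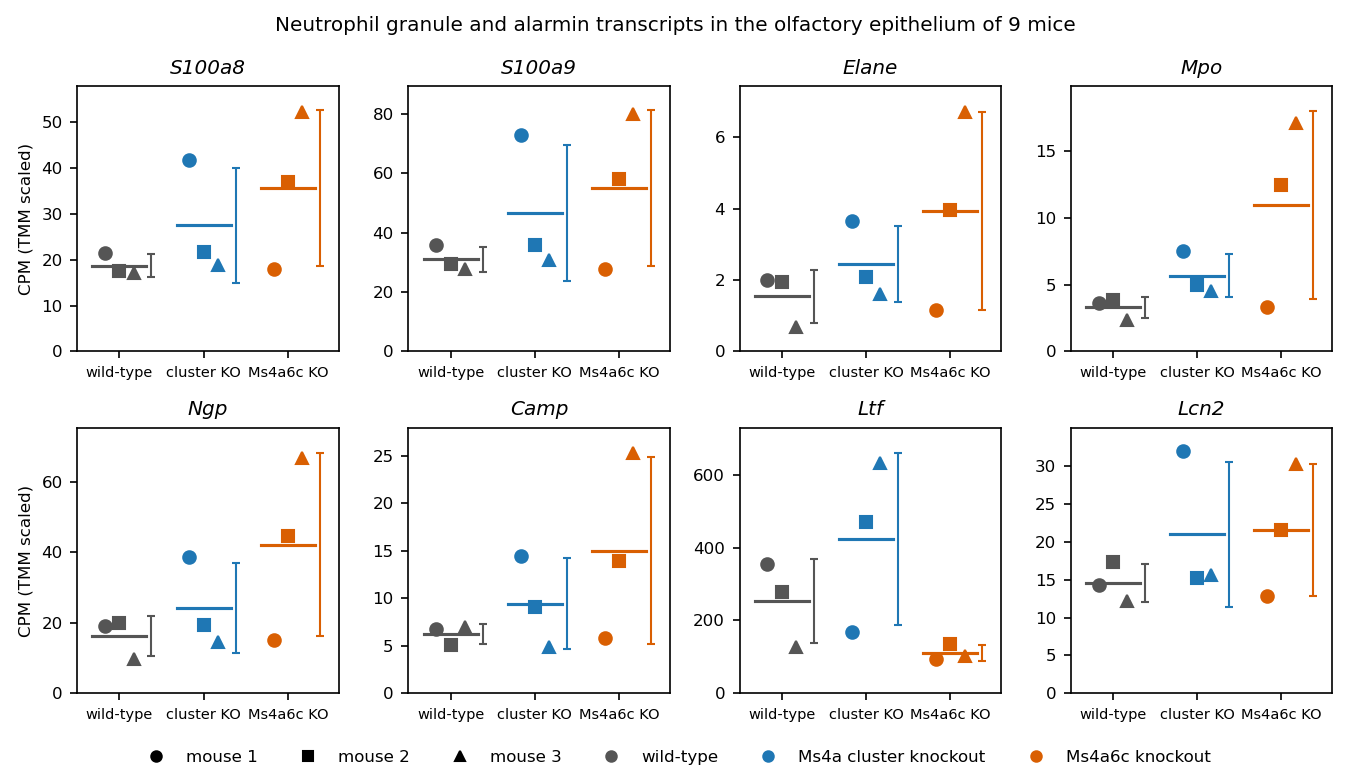
Level of each of the 8 transcripts in CPM after TMM scaling (linear axes from 0) in the 3 mice of each genotype; symbols give the mouse number, horizontal lines the group mean and vertical bars the SD around it (n = 3). In 7 panels cluster knockout mouse 1 and Ms4a6c knockout mice 2 and 3 are highest, whereas in the Ltf panel cluster knockout mice 2 and 3 and wild-type mouse 1 are.

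The genotype comparison asked whether loss of the Ms4a genes changed these transcripts. In Ms4a cluster knockout mice all 8 genes had higher means than in wild-type mice, from 0.53 (Lcn2) to 0.79 (Mpo) on the log2 scale, and none passed the test. In the 7 genes other than Ltf, mouse 1 of this line stood highest, at 2.19-fold to 2.38-fold the wild-type mean. The medians of the 7 were 1.20-fold in mouse 2 and 1.01-fold in mouse 3, so these genes are not separate observations. For Mpo the log2 fold change was 0.79 ± 0.50 (SE; adjusted p = 0.971 by edgeR's quasi-likelihood test), and for Ltf it was 0.74 ± 0.45 (adjusted p = 0.971). Over all genes 0.0258% were called in this comparison at an adjusted p of 0.05, and 0 of the 8 were, by edgeR and by DESeq2 alike. At an unadjusted p of 0.05, 4.93% of all genes and 0 of the 8 passed. The groups did not overlap for 1 of the 8, Mpo, against 9.86% of all genes.

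In Ms4a6c knockout mice 7 of the 8 genes had higher means than in wild-type mice and Ltf had a lower one, and again none passed the test by edgeR. Mpo differed by 1.72 ± 0.50 on the log2 scale (3.30-fold, adjusted p = 0.236 by edgeR), Ngp by 1.37 ± 0.52 (adjusted p = 0.388), Elane by 1.34 ± 0.61 (adjusted p = 0.482) and Camp by 1.25 ± 0.50 (adjusted p = 0.411). The alarmins differed by less, S100a8 by 0.92 ± 0.37 (adjusted p = 0.425 by edgeR) and S100a9 by 0.82 ± 0.39 (adjusted p = 0.490). Lcn2 differed by 0.55 ± 0.34 (adjusted p = 0.604 by edgeR), and Ltf by -1.20 ± 0.45 (0.436-fold, adjusted p = 0.385). Of all genes, 0.435% were called at an adjusted p of 0.05. At an unadjusted p of 0.05, 5 of the 8 passed (S100a8, Mpo, Ngp, Camp and Ltf), against 10.5% of all genes. In none of the 8 were the 2 genotypes free of overlap, against 18.3% of all genes, because Ms4a6c knockout mouse 1 lay within the wild-type range in 6 genes and below it in S100a9, and wild-type mouse 3 lay within the knockout range in Ltf.

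Whether Mpo was called turned on Ms4a6c knockout mouse 1 and on the tool. By DESeq2 Mpo was called in Ms4a6c knockout mice (log2 fold change 1.73 ± 0.46, adjusted p = 0.0146), and by edgeR it was called without Ms4a6c knockout mouse 1 (2.16 ± 0.27, adjusted p = 0.0108). Over the 16 alternatives tried its adjusted p ranged from 0.0108 to 0.622 and its direction did not change. No other of the 8 genes passed in this comparison under any of these alternatives.

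Between the 2 knockout lines Ltf had the widest difference. It was 3.83-fold higher in Ms4a cluster than in Ms4a6c knockout mice (log2 difference 1.94 ± 0.46, adjusted p = 0.166 by edgeR), and all 3 cluster knockout mice lay above all 3 Ms4a6c knockout mice. The other 7 genes had lower means in the cluster knockout line, by log2 differences from -0.02 (Lcn2) to -0.93 (Mpo), with overlapping groups. Of all genes 0.443% were called at an adjusted p of 0.05, 9.38% passed unadjusted and 16.0% had groups without overlap; of the 8 genes 0 were called, and 1, Ltf, met each of the other marks. Ltf was called by DESeq2 (adjusted p = 0.0428), by edgeR with no filter on low counts (adjusted p = 0.0303) and by edgeR without cluster knockout mouse 1 (adjusted p = 0.0335), and its adjusted p reached 0.514 at most over the alternatives. The comparisons of each knockout line with wild type share the same 3 control mice.

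**Figure D2:**
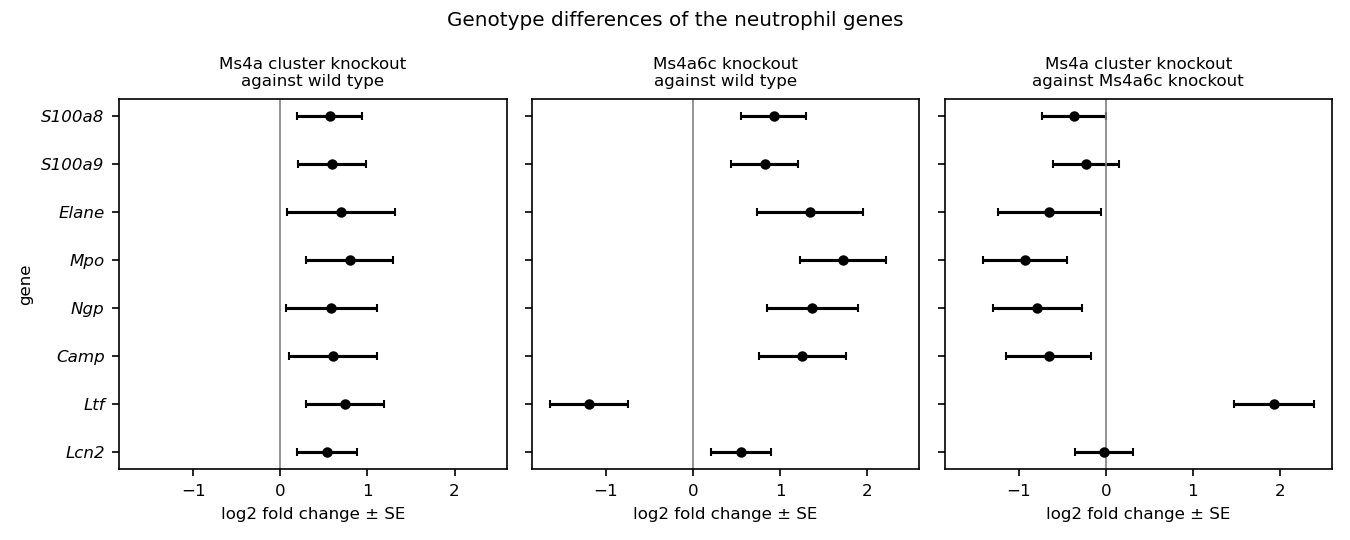
Log2 fold change of each of the 8 genes in 3 comparisons between genotypes (points, edgeR) with the standard error (bars); the grey line marks no difference. Cluster knockout against wild type all 8 points lie between 0.53 and 0.79, Ms4a6c knockout against wild type 7 lie above 0 and Ltf at -1.20, and between the knockout lines Ltf lies at 1.94 and the others at or below -0.02; no point passed an adjusted p of 0.05.

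The 7 genes other than Ltf shared their high mice. The same 3 animals were the highest in all 7, and the third of them exceeded the fourth highest mouse by 1.25-fold (Lcn2) to 1.94-fold (Ngp). Of all tested genes 2.08% had these 3 mice as their highest. Relative to the wild-type mean, the median of the 7 genes was 2.31-fold in cluster knockout mouse 1, 2.23-fold in Ms4a6c knockout mouse 2 and 4.05-fold in Ms4a6c knockout mouse 3, and between 0.838-fold and 1.20-fold in the other 6 mice. In cluster knockout mouse 1 the 7 genes stood nearly evenly above the wild-type mean, from 2.19-fold to 2.38-fold. In the 2 high Ms4a6c knockout mice they were not: Lcn2 was lowest, at 1.48-fold and 2.07-fold, and Mpo highest, at 3.78-fold and 5.19-fold. Since whole tissue was sequenced, more neutrophil-lineage cells and more RNA per cell cannot be told apart.

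Over the 9 mice, 21 of the 28 pairs among the 8 genes passed an exact permutation test of Pearson's r on log2 CPM (adjusted over the 28 pairs), and these were the 21 pairs without Ltf. By Spearman's rho 18 of these 21 passed. Because 3 mice lay apart from the other 6, coefficients of these pairs are given within the 6; pooled ones serve only to rank the nearest genes of each member, as a description. Within the other 6 mice the median r of the 21 pairs was 0.63, with a range from -0.31 (Camp and Lcn2) to 0.96 (S100a8 and S100a9), and 0 of the 28 pairs passed; the smallest p that 6 mice allow is 0.00139. The pair Elane and Ngp had an r of 0.95 within the 6 mice, by an exact permutation test with p = 0.0139 before and 0.214 after adjustment. After each genotype's mean was subtracted, 17 of the 21 pairs passed, so the shared variation did not lie only between genotype means. The 3 high mice remain in this setting, and no genotype was tested alone.

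Ltf did not pass with any of the other 7 genes, and its direction depended on the mice taken. Over all 9 mice its coefficients with them were negative, all 7 of them, and within the 6 mice they were positive (0.02 to 0.81, highest with Mpo). The ratio of Ltf to Pglyrp1, a peptidoglycan-recognition protein stored in neutrophil granules, spanned 3.12-fold, from 7.45 to 23.2, against 6.65-fold for Ltf itself. Pglyrp1 was not among the 3 genes nearest to Ltf, and this pair was picked out after its values were seen.

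**Figure D3:**
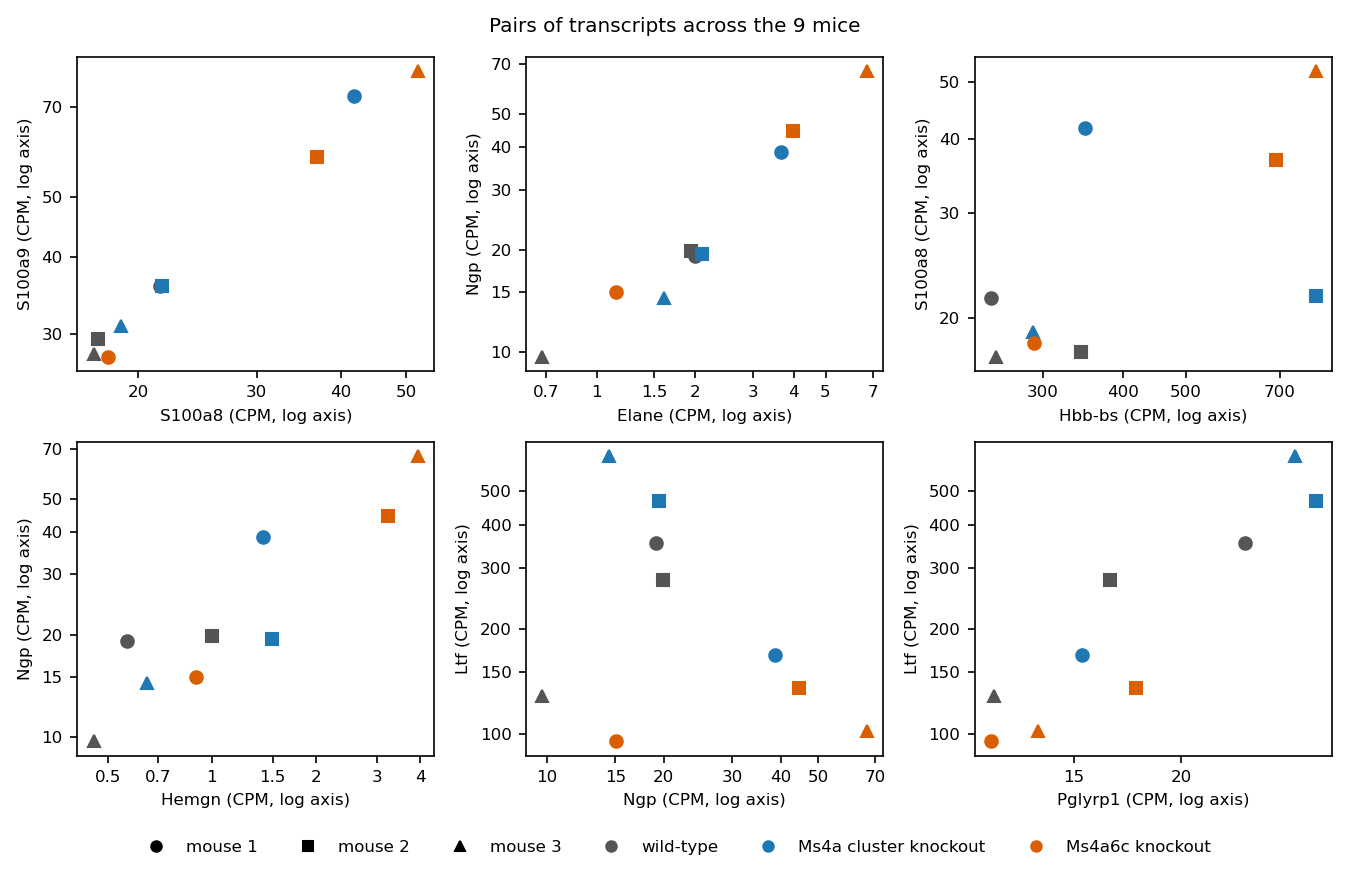
Pairs of transcripts in CPM on log axes over the 9 mice, with colour for genotype and symbol for mouse number. S100a8 with S100a9 and Elane with Ngp lie along a line; in the plot of S100a8 against Hbb-bs cluster knockout mice 1 and 2 lie off to opposite sides; Hemgn and Ngp are both highest in Ms4a6c knockout mice 2 and 3; Ltf is low where Ngp is highest and high where Pglyrp1 is high.

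The genes most like each of the 8 over the 9 mice were named by Pearson's r of log2 CPM among 16537 genes with a mean of at least 1 CPM, as a description. S100a8 and S100a9 were each other's nearest gene (r = 0.99), followed for both by Ly6c2, a surface antigen of monocytes and immature granulocytes (0.97). Camp followed for S100a8 (0.96) and Lcn2 for S100a9 (0.95). Elane and Ngp were likewise each other's nearest (0.98). Elane was next to Rps6ka1 (0.97) and to Prtn3, proteinase 3 of the same granules (0.95), and Ngp to Chil3, a chitinase-like protein of developing neutrophils (0.97). For Mpo, Ngp (0.96) and Apod (0.95) were among the nearest. For Camp they were BC051142 (0.96), Ly6c2 (0.96) and S100a8 (0.96), and for Lcn2 they were Itga2b, the integrin alpha chain of platelets (0.97), S100a9 (0.95) and Bin3 (0.94). For Ltf none was a gene of the lists: Ampd1 (0.96), Acat1 (0.95) and Tcp11 (0.93) came first. Within the 6 mice the likeness of S100a9 to Lcn2 was 0.37 and that of S100a8 to Camp 0.60, while that of Elane to Ngp was 0.95 and that of Ltf to Ampd1 0.96.

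Other neutrophil genes followed the members in part. Of the 5 further genes of primary granules and promyelocytes, Prtn3 was the highest, at 4.198 CPM over the 9 mice; Ctsg (cathepsin G, 0.942 CPM), Fcnb (ficolin B, 0.650 CPM) and the regulator Cebpe (0.458 CPM) were under 1 CPM. Prtn3 reached 5.11 CPM in cluster knockout mouse 1 and 5.65 and 8.35 CPM in Ms4a6c knockout mice 2 and 3, against 2.42 to 3.72 CPM in the other mice, which made the same 3 animals the highest. Of the 9 further genes of specific and gelatinase granules, the highest were Mmp9 (gelatinase B, 77.7 CPM), Adam8 (25.5 CPM), Pglyrp1 (18.6 CPM) and Chil3 (9.34 CPM). Chil3 reached 12.6, 11.8 and 22.6 CPM in the 3 high mice against 3.70 to 7.68 CPM elsewhere, whereas Mmp9 was lowest in 2 of them, at 48.3 and 52.8 CPM in Ms4a6c knockout mice 2 and 3 against 67.7 to 111 CPM in the rest. Ly6g, the marker of mature neutrophils, stood at 0.701, 1.05 and 0.701 CPM in the 3 high mice and at 0 to 0.498 CPM elsewhere. The 3 high mice were the highest for 2 of the 5 promyelocyte genes (Prtn3 and Ctsg) and for 4 of the 9 specific and gelatinase granule genes (Chil3, Ly6g, Cd177 and Mmp8), against 2.08% of all genes; those outside the naming rule were picked out after their values were seen.

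Genes of circulating neutrophils were few and less uniform. Hdc (histidine decarboxylase, 61.96 CPM, also made by mast cells) lay between 52.7 and 71.5 CPM in all mice. Retnlg, a resistin-like protein of mature neutrophils, reached 5.36, 7.75 and 7.90 CPM in the 3 high mice against 1.69 to 3.84 CPM in the others. It and Cxcr2 were the 2 of the 9 genes with these 3 mice highest. Csf3r, the receptor for the granulocyte growth factor G-CSF, averaged 3.13 CPM and Il1b, the cytokine interleukin 1 beta, 1.71 CPM. None of the 23 genes of these 3 neutrophil lists passed the edgeR test between any pair of genotypes. In Ms4a6c knockout mice their median log2 fold changes from wild type were 0.95 (promyelocyte), 0.60 (specific and gelatinase granule) and 0.92 (circulating), against 1.25 for the 7 genes without Ltf, 1.09 for all 8 and -0.00 for all genes tested. In cluster knockout mice the same medians were 0.22, -0.06 and 0.36, against 0.59 for the 7 genes, 0.60 for all 8 and 0.01 for all genes.

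Red cell transcripts, which mark blood of any source, went with the 7 genes in some mice and not in others. Hbb-bs, the most abundant beta globin, stood at 249, 344 and 253 CPM in the wild-type mice, at 348, 797 and 289.7 CPM in the cluster knockout mice and at 290.5, 690.2 and 797 CPM in the Ms4a6c knockout mice. The high animals were thus cluster knockout mouse 2 and Ms4a6c knockout mice 2 and 3. Hba-a2, Hba-a1, Hbb-bt and the heme synthesis gene Alas2 had the same 3 mice highest, which made 5 of 6 red cell genes. Hba-a1 and Hba-a2 are near-identical copies, as are the beta globins, so how their reads were split is uncertain. The 2 cluster knockout mice parted company: in mouse 1 the median of the 7 neutrophil genes was 2.31-fold and that of the red cell genes 1.26-fold the wild-type mean, and in mouse 2 they were 1.20-fold and 2.58-fold. The ratio of S100a8 to Hbb-bs was accordingly highest in cluster knockout mouse 1 (0.120) and lowest in cluster knockout mouse 2 (0.0273), a 4.40-fold range, while it lay between 0.0508 and 0.0865 in the other 7 mice.

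Erythroblast transcripts, which nucleated red cell precursors of marrow and spleen make, came closer to the 7 genes in the medians of cluster knockout mice 1 and 2. Hemgn, a nuclear protein of red cell precursors, stood at 0.569, 0.999 and 0.455 CPM in the wild-type mice, at 1.40, 1.495 and 0.652 CPM in the cluster knockout mice and at 0.902, 3.23 and 3.95 CPM in the Ms4a6c knockout mice. All 10 genes of this list, Ermap included, had Ms4a6c knockout mice 2 and 3 as their highest animals. Their median was 3.87-fold and 5.55-fold the wild-type mean there, 1.68-fold in cluster knockout mouse 1 and 1.08-fold in cluster knockout mouse 2. By these medians cluster knockout mouse 2, rich in globin, was not rich in erythroblast transcripts, nor was it in the 7 neutrophil transcripts. Gene by gene this was less uniform, and Hemgn was higher there than in cluster knockout mouse 1. The 3 mice highest in the 7 genes were highest for 2 of the 10 erythroblast genes, against 2.08% of all genes. For 3 of the 10 the highest were Ms4a6c knockout mice 2 and 3 with cluster knockout mouse 2. Wild-type mouse 2 stood at 1.47-fold for the erythroblast genes and at 1.18-fold for the 7 genes.

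**Figure D4:**
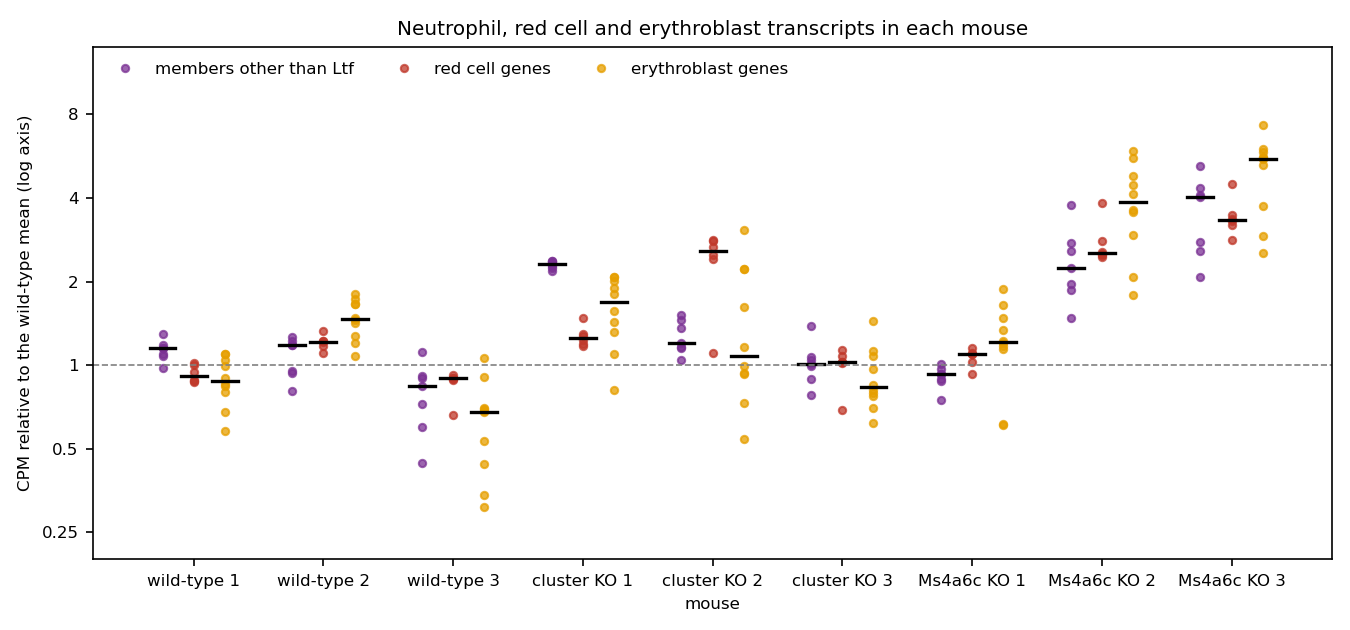
Level of each gene relative to its wild-type mean (log axis) in each of the 9 mice, for the 7 neutrophil genes other than Ltf (purple), 6 red cell genes (red) and 10 erythroblast genes (yellow); black bars are medians and the dashed line is the wild-type mean. All 3 sets lie high in Ms4a6c knockout mice 2 and 3; in cluster knockout mouse 1 the neutrophil genes lie high (median 2.31) with the red cell genes at 1.26, and in cluster knockout mouse 2 the red cell genes lie high (median 2.58) with the neutrophil genes at 1.20.

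Each of the 8 genes was set against 9 lists over the 9 mice, 72 pairs in all, by an exact permutation test of Pearson's r with adjustment over the 72. Of these, 24 passed, and 10 passed by Spearman's rho. The erythroblast, promyelocyte, and specific and gelatinase granule lists each passed with 6 of the 7 genes without Ltf, the red cell list with 5 and the circulating neutrophil list with 1. The bone, nasal gland, sustentacular cell and olfactory sensory neuron lists passed with 0 of the 7, and Ltf passed with no list. Without Ms4a6c knockout mouse 3 alone 0 of 72 pairs passed, and without Ms4a6c knockout mouse 2 alone 8 did. Within the 6 mice outside the 3 high ones 0 of 72 passed, but a single pair at the smallest p of 6 mice, 0.00139, cannot pass the adjustment over 72, so this count says little. The coefficients there put the nasal gland list first: its median r with the 7 genes was 0.84 (0.35 to 0.94), against 0.64 for the erythroblast, 0.55 for the red cell, 0.37 for the specific and gelatinase granule, 0.21 for the promyelocyte and 0.06 for the circulating neutrophil list. For the sustentacular cell, olfactory sensory neuron and bone lists the medians there were -0.35, -0.49 and -0.61. Those 6 mice include both gland-rich libraries, whose levels depend on the scaling. There S100a8 was 21.5 and 21.7 CPM after TMM, against 17.2 to 18.9 CPM in the rest of the 6. By plain library size it was 15.1 and 15.3 CPM, against 19.2 to 20.7 CPM. S100a9 reversed likewise, and the other genes did not reverse fully. Over the 7 mice without these libraries, r with the gland list was -0.57 to -0.18 for the 7 genes. With genotype means subtracted over the 9 mice the order was another: the median r was 0.91 for the promyelocyte, 0.87 for the specific and gelatinase granule, 0.84 for the erythroblast, 0.69 for the red cell and 0.60 for the circulating neutrophil list, 0.31 for the olfactory sensory neuron list, and -0.13, -0.14 and -0.37 for the bone, sustentacular cell and nasal gland lists. Here too 0 of 72 passed, in a design whose smallest p of 0.00463 cannot carry a single pair past the adjustment. The setting within 6 mice and that with means subtracted differ both in the mice and in the subtraction, and the 3 high mice are only in the second. Between them the median changed sign for the gland and olfactory sensory neuron lists and for no other list.

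Taken gene by gene, transcripts of the epithelium's own cells varied less from mouse to mouse than the 8 genes. The median span between the lowest and the highest mouse was 1.32-fold for genes of olfactory sensory neurons, 1.41-fold for sustentacular cells, 1.67-fold for basal and squamous epithelium and 1.61-fold for the epithelial acute phase response, against 5.93-fold for the 8 genes. It was 7.03-fold for the further promyelocyte genes, 2.77-fold for those of specific and gelatinase granules, 3.36-fold for circulating neutrophils, 3.76-fold for red cells and 10.4-fold for erythroblasts, and it was widest for the nasal gland, at 2120-fold. Genes with few counts span more by counting error alone. A summed list follows mainly its most abundant genes. The 8 genes of olfactory sensory neurons, led by Omp, Gnal, Stoml3 and Adcy3, summed to 10673 CPM at the lowest and 13517 CPM at the highest, a 1.27-fold range, and the 7 genes of sustentacular (supporting) cells, led by Cyp2a5, Cyp2g1, Cbr2 and Sult1c1, spanned 1.38-fold. Basal and squamous epithelium genes, led by Krt5, Krt14 and Trp63, spanned 1.35-fold, and genes of the epithelial acute phase response, led by Steap4, Nfkbiz and Cxcl5, 1.25-fold. The acute phase genes Saa1, Saa2 and Saa3 did not reach 10 counts over the 9 mice. The sum of the 8 genes spanned 4.04-fold by the same measure, and that of the 7 without Ltf 3.61-fold. Summed nasal gland genes spanned 302-fold, erythroblast genes 6.04-fold, red cell genes 3.53-fold and the further promyelocyte genes 3.51-fold, whereas those of specific and gelatinase granules and of circulating neutrophils spanned only 1.38-fold and 1.25-fold. The largest parts of these last 2 sums were Mmp9 (77.7 CPM over the 9 mice) and Hdc (61.96 CPM). Of the neuron list 1 gene, Gng13, passed the test: it was lower in Ms4a6c knockout than in wild-type mice (log2 fold change -0.89 ± 0.09, adjusted p = 0.00121 by edgeR) and than in cluster knockout mice.

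For Ltf the gland transcripts were the nearest of the 9 lists. Over the 9 mice its r with the nasal gland list was 0.77 (Spearman's rho 0.63), which did not pass by the exact permutation test (adjusted p = 0.051). Without the 2 mice farthest from the list's median, which are the gland-rich libraries, r was 0.66 and rho only 0.32. The exact permutation test of that r gave p = 0.118 before adjustment. The gland-rich libraries, wild-type mouse 1 and cluster knockout mouse 2, were the third and the second highest for Ltf, but cluster knockout mouse 3, highest for Ltf, had 1.21% of its counts in the 10 gland genes. Those genes were led by Bpifb9b, Bpifb9a, Obp1a and Obp2a. Their median log2 fold change was -3.08 in Ms4a6c knockout against wild-type mice and 3.65 in cluster against Ms4a6c knockout mice, the directions of Ltf. In each, 0 of 10 passed the test and 3 of 10 passed unadjusted, against 10.5% and 9.38% of all genes. In cluster knockout against wild-type mice their median was -0.03, with 4 of 10 genes higher, where Ltf differed by 0.74. Their part in the level of Ltf was not tested. Without both gland-rich libraries Ltf kept its direction in all 3 comparisons and did not pass.

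Gng13 was the only gene of the 15 lists that passed between any pair of genotypes. In Ms4a6c knockout against wild-type mice the median log2 fold change was 1.78 for the erythroblast genes and 1.21 for the red cell genes. Unadjusted, 9 of 10 and 6 of 6 of them passed, against 10.5% of all genes. Ms4a6c knockout mice 2 and 3 were the highest in 10 of the 10 and in 4 of the 6, so these genes are not separate observations. The median was 0.83 for megakaryocyte and platelet genes (led by Itga2b, Ppbp, Pf4 and Gp5) and 0.75 for precursors of B cells (led by Vpreb3, Rag1 and Vpreb1). Both medians rest on genes with few counts. The platelet gene at the median averaged 0.376 CPM in Ms4a6c knockout and 0.207 CPM in wild-type mice, and the 2 most abundant differed by 0.12 (Itga2b) and 1.54 (Ppbp). Of the B-cell precursor genes only Vpreb3 (14.1 CPM, log2 fold change 0.43) averaged above 0.44 CPM. The median was -0.28 for macrophage genes (led by Csf1r, C1qb, C1qa and C1qc) and -0.43 for bone genes (led by Ibsp, Bglap, Bglap2 and Dmp1). It lay at 0.20 for sustentacular cells, 0.05 for olfactory sensory neurons, 0.11 for basal and squamous epithelium, 0.10 for the acute phase genes and -0.01 for receptors of the released proteins (led by Lrp1, Slc22a17, Tlr4 and Fpr2). Tlr4, a receptor through which calprotectin signals, lay between 12.5 and 16.1 CPM in all 9 mice.

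Blood and marrow transcripts moved with the 7 genes in Ms4a6c knockout mice 2 and 3, where red cell, erythroblast and neutrophil genes were all high, and their part in the genotype differences was not tested. In the same 2 mice bone transcripts were not high: summed bone genes stood at 309 and 335 CPM there, within the range of 261 to 598 CPM over all mice. Summed macrophage genes, which mark resident myeloid cells, stood at 107, 108 and 113 CPM in Ms4a6c knockout mice 1, 2 and 3. They stood at 125 to 161 CPM in the mice of the other genotypes, so this line was lowest. Between the knockout lines 7 of 7 macrophage genes had groups without overlap, against 16.0% of all genes, and 0 passed the test. Without wild-type mouse 1 and cluster knockout mouse 2, 0 of the 8 genes were called in any comparison.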

How the data were processed

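Olfactory epithelium RNA of 9 mice (3 per genotype, numbered as in the labels) had been sequenced. The authors prepared strand-specific poly-A libraries, aligned reads to mm10 with STAR 2.6.1 and quantified genes with RSEM 1.3.1; the deposited values are expected counts without normalization. The depth was 13954591 to 21987174 expected counts per mouse. After rounding, 23225 genes reached the minimum of 10 counts over the 9 mice, and 1 model of all 9 mice was fitted with edgeR 4.0.16 (R 4.3.3, TMM, quasi-likelihood test, Benjamini-Hochberg adjustment over these genes, threshold 0.05) after a test on simulated data. DESeq2 1.42.0 was an alternative, as were other filters and scalings, a replicate block, fits of the 2 compared genotypes alone and fits without each mouse. Levels are CPM; correlations used log2 CPM with a prior count of 2 and exact permutation tests (numpy 2.4.6), adjusted within each family. Gene positions and lengths came from GENCODE M21 on GRCm38 and promoters from RefSeq. The 8 genes, the 15 lists and the tests were chosen with earlier results of these data known. Genes named are the 8, Ms4a6c and Ms4a1, up to 4 of the most abundant genes of each list, list genes passing the test, and the 3 most alike per gene; Ly6g, Retnlg and Cebpe were named for what they mark, and Saa1, Saa2 and Saa3 because they failed the filter. Leaving out the gland-rich libraries, and the correlations within 6 mice, were added after the data were seen. Some genes that the naming rule covers are not reported here.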

Additional observations from a re-analysis of the deposited data

How the results depend on the processing

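Over 16 alternatives, 21 of the 24 log2 fold changes of the 8 genes (3 comparisons) kept their direction in every one. The exceptions lie between the knockout lines: Lcn2 (-0.02) was 0.16 without the 2 gland-rich libraries and -0.47 to 0.30 when 1 mouse at a time was left out, S100a8 (-0.36) -0.81 to 0.017 and S100a9 (-0.23) -0.72 to 0.14. The alternatives share most of their mice, and the sizes held less well than the directions. In cluster knockout against wild type the lowest values were 0.05 (Ngp), 0.08 (Lcn2), 0.10 (S100a9), 0.11 (S100a8) and 0.13 (Camp). For Elane, Ltf and Mpo they were 0.25, 0.33 and 0.53. Between the knockout lines Elane (-0.65) came to -0.02 and Camp (-0.65) to -0.05. The count of the 8 genes called, 0 in each comparison, became 1 with DESeq2 (Mpo in Ms4a6c knockout against wild type and Ltf between the knockout lines) and 1 without a filter (Ltf between the knockout lines); without 1 mouse it was 0 to 1 in those 2 comparisons and 0 in cluster knockout against wild type. Of all genes, 6 were called in cluster knockout against wild type, 101 in Ms4a6c knockout against wild type and 103 between the knockout lines. At an adjusted p of 0.01 these were 3, 58 and 60, with DESeq2 18, 345 and 271, and without a filter 182 in the second and 155 in the third. Without the gland-rich libraries the second was 350. Leaving out 1 mouse gave 3 to 7, 59 to 159 and 66 to 121. The replicate numbers did not pair the mice (mean r of same-numbered deviations -0.37, -0.03 and 0.00), and with them as a replicate block the counts were 2, 71 and 75, with 0 of the 8 genes called. Of the 21 pairs of the 8 genes that passed, 0 passed within 6 mice and 20 to 21 without 1 mouse. Of the 24 pairs with lists, 0 passed with genotype means subtracted, 0 within 6 mice and 14 without the gland-rich libraries; leaving out 1 mouse gave 0 (without Ms4a6c knockout mouse 3) to 29, and 8 without Ms4a6c knockout mouse 2. The cause of these shifts was not tested. Plain library size shifted all levels by -0.50 (log2) in the gland-rich libraries and by 0.10 to 0.17 in the others. With 3 mice per genotype and spans of 2.61-fold to 9.80-fold between mice, differences within that spread could not be resolved.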
